A study of Mus musculus with 2 samples.

Results

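The epidermal innate lymphoid-like cells described here were sorted ear-epidermal cells with transcripts of Il7r, Rora and Gata3 and almost none of the CD3 complex. In single-cell RNA-seq of 2 libraries, 196 of 10203 barcodes kept met the rule, 72 of 4242 after isotype control and 124 of 5961 after anti-Skint1 antibody. Barcodes were kept with 500 to 2500 genes detected and at most 12% mitochondrial UMIs (unique molecular identifiers, each standing for 1 captured transcript). A kept barcode was a member when Il7r, Rora and Gata3 together had at least 3 UMIs, Cd3d, Cd3e and Cd3g together at most 2, and Trdv4, Trac and Il17a none. Both libraries came from female WT FVB/NJ mice at 8 weeks of age, 7 days after an intradermal ear injection of isotype control antibody or of anti-Skint1 antibody. Trypsinised epidermis was sorted for viable CD45+EpCAM-MHC-II- cells, so that the gate took all leukocytes without EpCAM or MHC-II rather than innate lymphoid cells in particular. Skint1 is a keratinocyte-expressed immunoglobulin superfamily molecule seen by the antigen receptor of dendritic epidermal T cells (DETCs), the γδ T cells that fill mouse epidermis. DETCs, taken as kept barcodes with at least 3 Trdc UMIs, at least 3 CD3 UMIs and no Trac, Cd4, Cd8a or Cd8b1, numbered 3544 and 4945. With 1 library per treatment there was no replicate, so no p-value is given, and an effect of treatment cannot be told apart from one of library.

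Innate lymphoid cells (ILCs) are lymphocytes without a rearranged antigen receptor that answer to cytokines and alarmins released by epithelium. Group 2 ILCs use GATA3 and RORα and make type 2 cytokines and amphiregulin, group 3 ILCs make IL-22 or IL-17 with lymphotoxins, and group 1 ILCs and NK cells use T-bet or Eomes and carry cytotoxic genes. Skin holds all of these, and IL-7 receptor signalling maintains most ILCs.

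Levels were the summed UMIs of a group as counts per 1000000 of its UMIs (CPM), and pairs of values give the isotype library before the Skint1 antibody library. The members held 338046 and 596161 UMIs in all. Their median was 4570 and 4312.5 UMIs per cell, against 4027.5 and 3577 in DETCs, and their median mitochondrial share was 6.11% and 7.04%, against 5.44% and 5.60%. Intervals are 95% intervals that cover counting error only, not the spread between cells or between mice. They take each UMI as independent, also where a few cells held most UMIs of a gene. No member barcode was shared between the libraries, which had 5 kept barcodes in common. A simulated-doublet score marked 0 and 3 members.

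The rule genes showed how thinly the members were defined. Il7r, the α chain of the IL-7 receptor, had a median of 3 UMIs per member and none in 6 and 16 cells. Rora, the gene of RORα, had a median of 2 and Gata3, the transcription factor of type 2 lymphocytes, a median of 1, with no Gata3 UMI in 23 and 38 members. The sum stood exactly at the limit of 3 in 10 and 12 members, and 8 and 9 further cells with a sum of 2 met all other conditions. At the other limit, 23 and 31 members had 2 CD3 UMIs, and 16 and 24 cells with exactly 3 met all other conditions. Since these values chose the members, the levels of 748 and 721 CPM for Il7r, 488 and 485 for Rora and 251 and 283 for Gata3 are descriptions (DETCs had 10.4 and 9.03, 15.1 and 13.4, and 59.5 and 63.3).

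**Figure D1:**
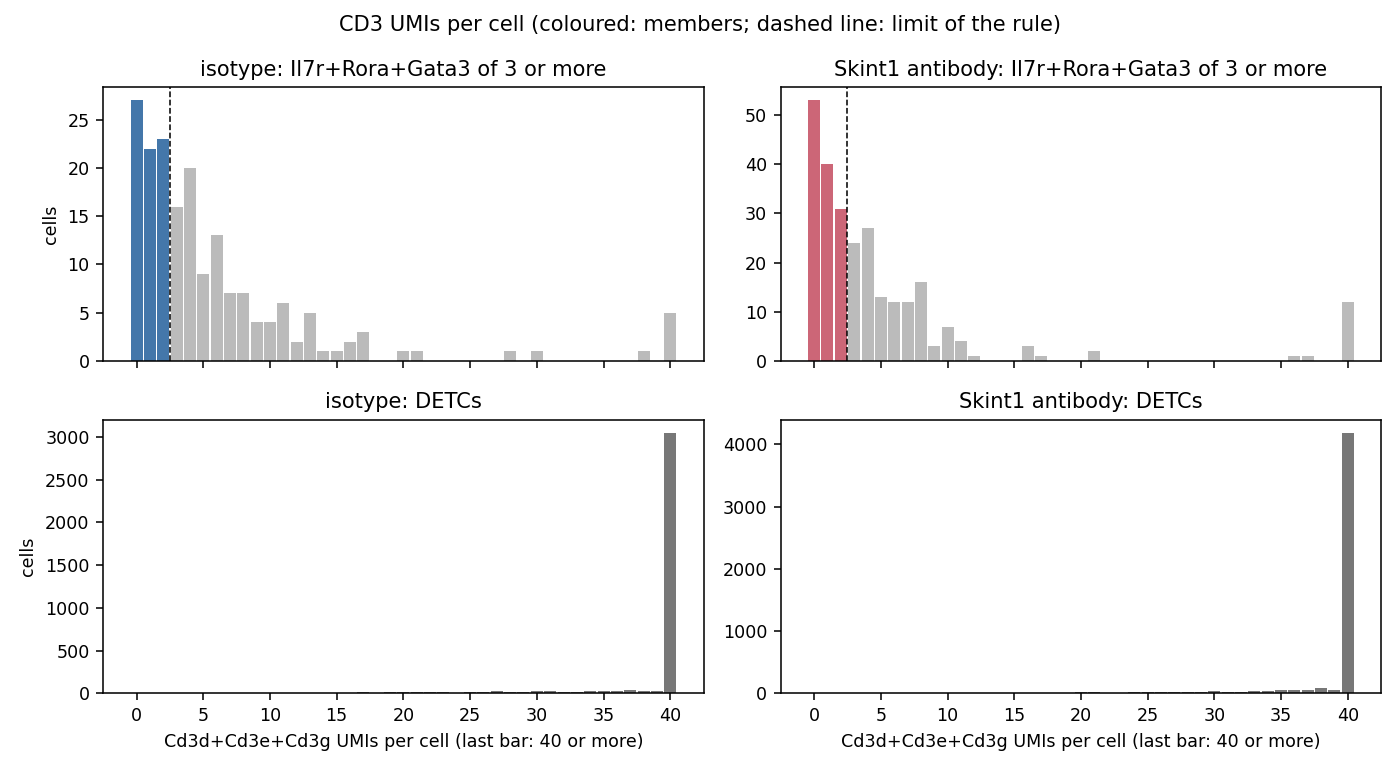
Upper panels: cells per number of CD3 UMIs (Cd3d+Cd3e+Cd3g, x axis) among kept barcodes with at least 3 UMIs of Il7r, Rora and Gata3 and no Trdv4, Trac or Il17a, with members coloured and the limit dashed, in each library. Lower panels: the same axis for DETCs, whose median was 65 and 60, while the upper panels run on past the limit of 2 with no gap.

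No gap in CD3 separated the members from their neighbours. Of cells meeting the other conditions, 27 and 53 had no CD3 UMI, 45 and 64 had 3 to 5, 35 and 50 had 6 to 10, and 30 and 25 had 11 or more. The composition of the CD3 UMIs differed from that of T cells, which is a description, since the rule limited the sum of these genes. Of the members' CD3 UMIs, 65 of 68 and 88 of 102 were Cd3g, that is 95.6% (87.6 to 99.1) and 86.3% (78.0 to 92.3), whereas Cd3g made up 61.3% and 60.6% in DETCs. Cd3d had 1 and 9 UMIs and Cd3e, the chain that anchors the complex, 2 and 5 UMIs over all members. In the cells with 3 to 10 CD3 UMIs, called CD3-intermediate here (79 and 114 cells without markers of other cell types), Cd3g still made up 85.3% (81.6 to 88.6) and 83.4% (80.2 to 86.2). The part of RNA free in the droplets in the members' CD3 UMIs was not tested.

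Not every member was a lymphocyte by its other transcripts. In 1 and 10 members, 8 keratinocyte markers (Krt5, Krt14, Krt10, Krt1, Krt15, Dmkn, Lgals7, Sfn) had 251 and 34 to 639 UMIs. Those cells entered through Rora and Gata3 with no Il7r UMI, had no UMI of Ptprc (the CD45 gene) or Ccr6, and Hlf was found in 0 and 5 of them. A further 2 and 2 members had 6 to 202 and 216 to 408 UMIs of Langerhans cell and myeloid markers (Cd207, H2-Aa, H2-Ab1, Csf1r, Lyz2, Itgam, Csf3r, S100a8), with Il7r and Ptprc but no Rora or Gata3. The other 69 and 112 members held 0 to 2 and 0 to 4 keratinocyte UMIs, and Ptprc was found in 56 and 84 and Il7r in 64 and 106 of them. Many values are therefore also given for the remaining 181 members, a selection made after the data were seen. In those 181 cells, B cell markers summed to 6.25 and 0 CPM and melanocyte and stromal markers to 9.38 and 1.99 CPM, 14 mast cell and basophil markers were at 0 but for Kit and, in the Skint1 antibody library, 1 other gene, and Langerhans and myeloid markers summed to 278 and 330 CPM, most of it Cd74. Keratinocyte markers summed to 188 and 199 CPM in the 181, against 90.8 and 111 in DETCs. Dermal γδ T cell markers summed to 494 and 396 CPM, against 88.6 and 91.7, and the 2 of them that passed the minimum, 5830411N06Rik and Maf, both had their direction over DETCs fixed by it. αβ T cell markers, which include Trbc1 and Trbc2, summed to 1986 and 2033 CPM, against 2593 and 2233. The part of other cells in the members' levels was not tested.

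**Figure D2:**
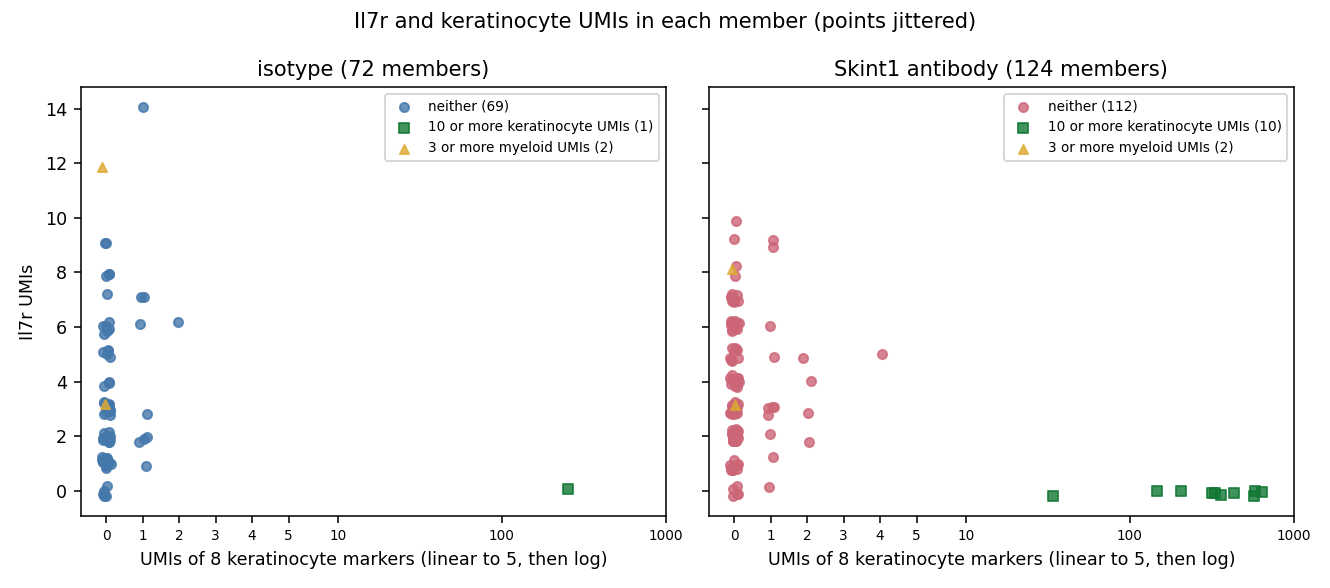
Each point is 1 member, with the UMIs of 8 keratinocyte markers on the x axis (linear to 5, then logarithmic) and Il7r UMIs on the y axis, by library. The 1 and 10 members with at least 10 keratinocyte UMIs lie far to the right at 0 Il7r UMIs, apart from the 69 and 112 remaining members at 4 keratinocyte UMIs or fewer.

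The limit of 2500 genes mattered to who was counted. A further 52 and 81 barcodes met every other condition but had more genes, with medians of 19053 and 21536 UMIs, and 49 and 80 of them carried keratinocyte or myeloid markers. Their Ccr6 level was 4.33 and 1.04 CPM and their Krt14 level 7348 and 8134 CPM, while Hlf stood at 218 and 218 CPM, well above the level in DETCs. Hlf was thus also found in barcodes that mostly carried keratinocyte markers.

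The share of members among kept barcodes was 1.70% (Clopper-Pearson 1.33 to 2.13) and 2.08% (1.73 to 2.48). The difference of 0.383 percentage points, with an interval of -0.164 to 0.908, lay within counting error. For the 181 members the shares were 1.63% and 1.88% and the difference 0.252 points (-0.278 to 0.759). These intervals cover counting of cells in 1 library each, so that a change in the share between the treatments was not tested.

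Of the 7 marker genes named for this population, Ccr6, Il9r, Cd70 and Hlf played no part in the rule. All were far above DETCs in both libraries, which is a description, since the markers were chosen with earlier results of these data known. Ccr6, Cd70 and Hlf passed the minimum mean level of 50 CPM only by being high in the members, and Il9r did not pass it. Ccr6 (GRCm38 chr17:8236043-8257141, plus strand), the CCL20 receptor carried by lymphoid-tissue-inducer cells and type 17 lymphocytes, stood at 228 and 257 CPM (77 UMIs in 46 cells and 153 UMIs in 71 cells) against 2.25 and 1.39 in DETCs. That was 101-fold and 185-fold higher, or 6.66 (6.05 to 7.30) and 7.53 (6.92 to 8.19) on the log2 scale. Hlf (chr11:90336536-90390895, minus strand), a PAR bZIP transcription factor best known from blood stem cells, stood at 603 and 441 CPM (204 UMIs in 59 cells and 263 in 97) against 4.57 and 4.17, a log2 ratio of 7.04 (6.64 to 7.47) and 6.73 (6.36 to 7.11). It was the most abundant and most widely detected of these 4 genes.

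The other pair was sparser per cell. Il9r (chr11:32187541-32200279, minus strand), the receptor chain for IL-9, a growth factor of type 2 ILCs, had 20 UMIs in 17 members and 42 in 33, or 59.2 and 70.5 CPM. DETCs had 2 and 2 Il9r UMIs over all cells, which gave a log2 ratio of 8.76 (6.72 to 11.90) and 9.36 (7.42 to 12.46). Cd70 (chr17:57145997-57149777, minus strand), the ligand of the co-stimulatory receptor CD27, had 31 UMIs in 14 members and 69 in 26, or 91.7 and 116 CPM against 0.409 and 0.267. Its log2 ratio was 7.81 (6.53 to 9.36) and 8.76 (7.47 to 10.43). Barcodes with 1 to 100 UMIs, which hold mostly free RNA, had 7.91 and 10.4 CPM of Ccr6, 29.6 and 29.3 of Hlf, 2.54 and 6.11 of Il9r and 9.60 and 7.33 of Cd70, so that each gene was higher in the members than in the free RNA.

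Most members carried at least 1 of these genes, and few carried all. At least 1 of the 4 genes was found in 66 of 72 (91.7%) and 112 of 124 (90.3%) members, and at least 2 in 48 (66.7%) and 81 (65.3%), while all 4 were found together in 3 and 4. Among the 181 members, 66 of 69 (95.7%) and 107 of 112 (95.5%) had at least 1. In DETCs 1.52% and 1.15% of cells did, at a median depth not far below. After every cell was thinned to 1500 UMIs, which left out 2 and 0 members and 41 and 84 DETCs, Ccr6 was found in 34.3% (23.3 to 46.6) and 39.5% (30.9 to 48.7) of members and in 0.200% and 0.144% of DETCs. Without thinning the member shares were 63.9% and 57.3%. Thinned shares of Hlf were 58.6% and 45.2%, against 0.542% and 0.411% in DETCs, those of Il9r 7.14% and 12.1% and those of Cd70 8.57% and 12.9%. All 7 marker genes were found in the members, Il7r, Rora and Gata3 among them because the rule chose on them. All 7 were also found, at lower summed levels, in αβ T cells of the same sort, which were not chosen on those rule genes.

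The same genes were measured in other T cells. αβ T cells (kept barcodes with at least 2 Trac UMIs, at least 3 CD3 UMIs and no Trdv4; 110 and 90 cells) had 85.0 and 109 CPM of Ccr6 and 215 and 256 of Hlf. Dermal-type γδ T cells (at least 3 CD3 UMIs, no Trac or Trdv4, and at least 2 UMIs of Cd163l1, Il17a and Blk; 24 and 27 cells) had 95.2 and 40.5 CPM of Ccr6 and 156 and 89.1 of Hlf, with no UMI of Il9r or Cd70. Ccr6 and Hlf in both groups were below the members and above DETCs. The CD3-intermediate cells had 303 and 212 CPM of Ccr6, 474 and 514 of Hlf, 79.5 and 74.5 of Il9r and 33.3 and 84.0 of Cd70. For Ccr6 and Hlf they were above the 196 members in 1 library and below in the other, for Il9r above and for Cd70 below in both. Against the 181, which like them lacked other cells' markers, Il9r turned in the Skint1 antibody library. There the 181 had 42 UMIs of 503079, and CD3-intermediate cells had 39 of 523823.

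**Figure D3:**
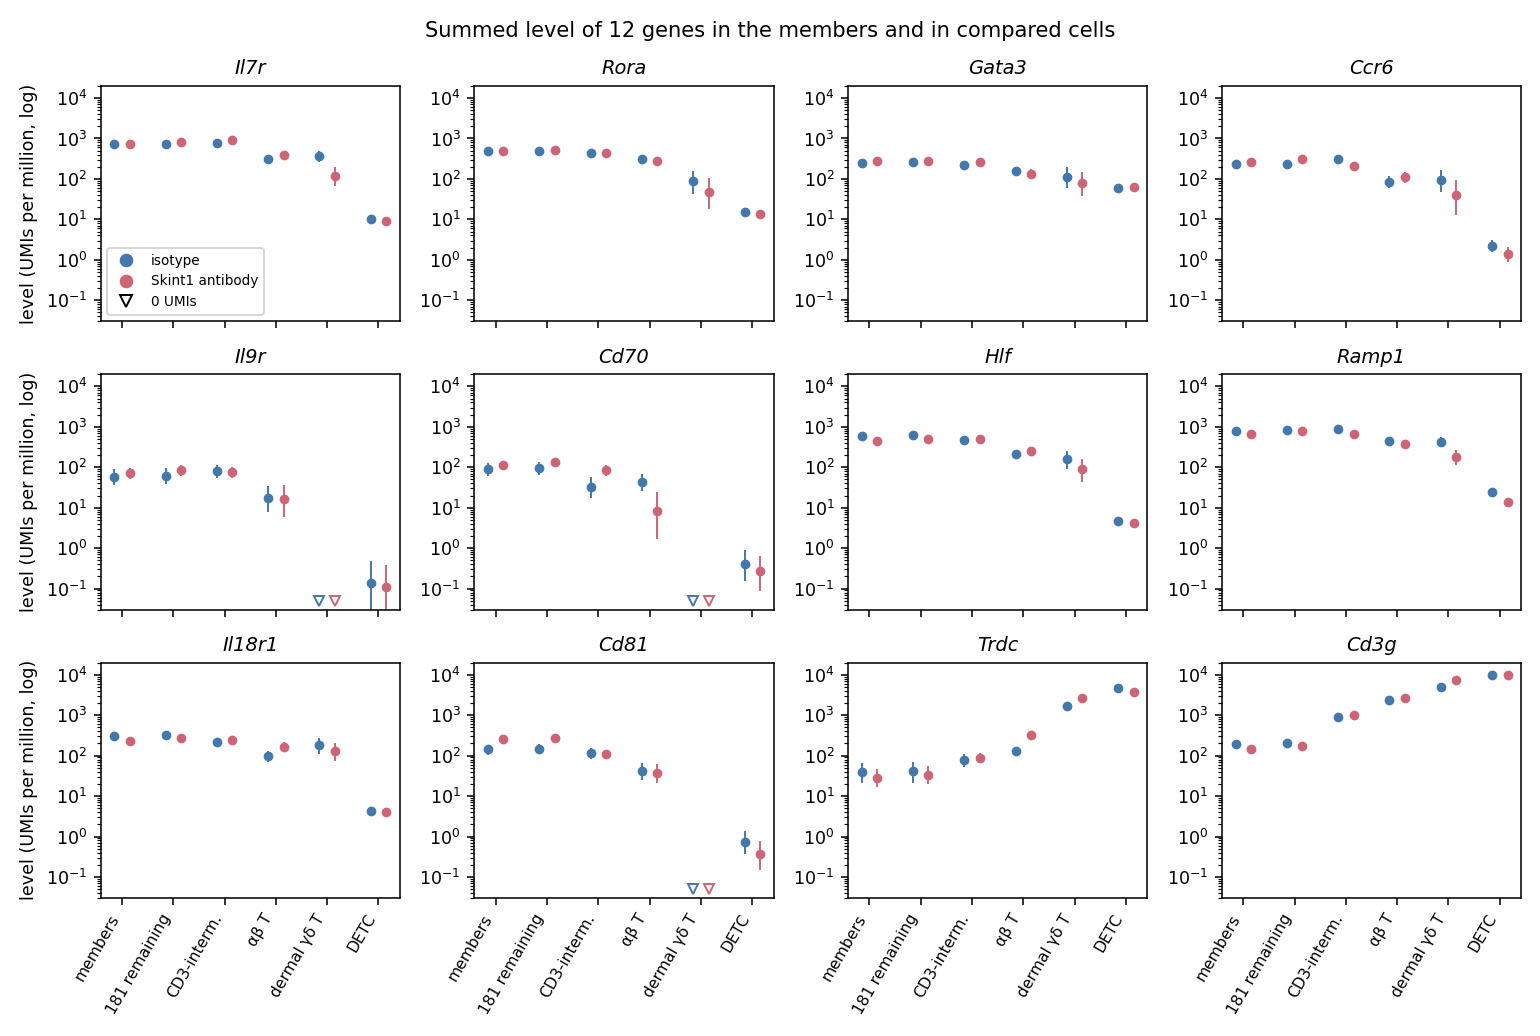
Summed level (CPM, log axis) of 12 genes in the 196 members, the 181 remaining members, CD3-intermediate cells, αβ T cells, dermal γδ T cells and DETCs, 1 point per library with its exact Poisson 95% interval and open triangles for 0 UMIs. Ccr6, Il9r, Cd70 and Hlf are higher in the members than in αβ T cells, dermal γδ T cells and DETCs, whereas Trdc and Cd3g are lower.

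Across all genes the members differed from DETCs more often downwards. Of 2746 genes with a mean of at least 50 CPM, 157 (5.72%) were at least 2-fold higher and 331 (12.1%) at least 2-fold lower in both libraries, and the median log2 ratio was -0.06 and -0.14. Because the members were chosen by these counts, the numbers describe the contrast. A gene low in DETCs could pass the minimum only by being high in members, and the reverse, which fixed the direction of 99 of the higher and 154 of the lower genes. Among the 2481 genes above 33.3 CPM in both groups, 58 were higher and 177 lower. With the 15 cells left out, 157 of 2750 genes were higher and 342 lower, and 130 and 311 of these were shared with the lists from all members.

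**Figure D4:**
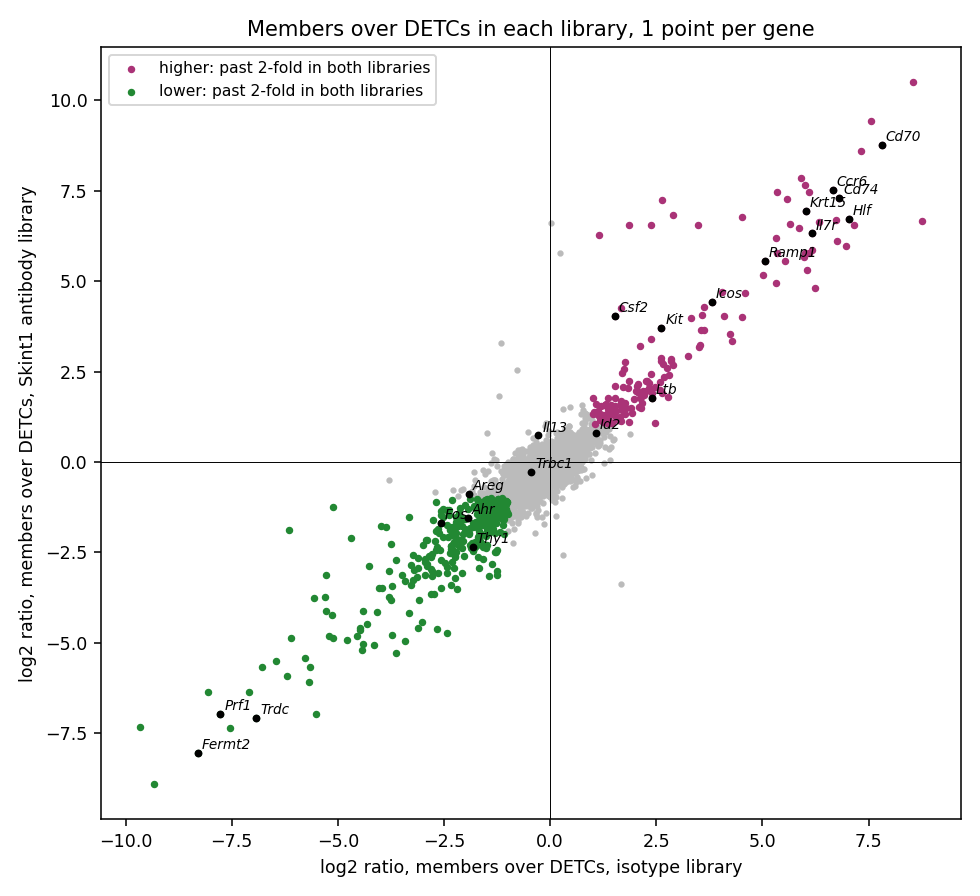
Log2 ratio of members over DETCs in the isotype library (x axis) and the Skint1 antibody library (y axis), 1 point for each of 2722 tested genes, with 24 genes at 0 UMIs in a group not drawn. Genes past 2-fold in both libraries are coloured, 157 higher and 331 lower, and the off-diagonal points above Csf2 and Krt15 differ between the libraries' members.

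The ranking by ratio over DETCs left out the genes of the members' and DETC rules. Of the 15 genes with the highest ratio, 6 came wholly or almost wholly from the 15 cells with other markers. Cd207, Il1b, H2-Aa, Ifitm3 and Fxyd3 had no UMI in the remaining 181 members, and Krt15 had 0 and 1. The other 9 were Cd70, Ccr6 and Hlf, described above, with Cd81, Pxdc1, Cd84, Tnfrsf25, Adgre5 and Cd74. Cd81, a tetraspanin, stood at 142 and 260 CPM against 0.75 and 0.374, a log2 ratio of 7.56 and 9.44. Tnfrsf25, the death receptor that binds TL1A and co-stimulates ILCs, stood at 142 and 139 CPM against 1.77 and 1.39. Pxdc1 stood at 340 and 299 CPM against 3.21 and 2.89, Cd84, a homophilic SLAM family receptor, at 213 and 164 against 1.50 and 1.76, and Adgre5 (CD97) at 133 and 101 against 1.23 and 1.44. Cd74, the MHC class II invariant chain, stood at 828 and 1162 CPM in all members and at 219 and 282 in the 181, still 4.89 (4.44 to 5.34) and 5.27 (4.92 to 5.62) above DETCs on the log2 scale. The 181 members had 0 and 0 UMIs of H2-Aa and 0 and 2 of H2-Ab1.

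The 10 genes with the lowest ratio, with the same rule genes left out, were nearly silent in the members. Trf, Serp2, Scn8a, Rcn3, Kir3dl2 and Atp1b1 had no UMI in any of the 196 cells, with DETC levels of 104 to 258 and 104 to 223 CPM. Against a floor of 3 UMIs per library, Atp1b1, a subunit of the sodium pump, was at least 29.0-fold and 44.3-fold lower, and Trf, the gene of transferrin, at least 22.7-fold and 34.3-fold lower. Fermt2, the integrin activator kindlin-2, had 1 and 2 UMIs against 933 and 883 CPM in DETCs, a log2 ratio of -8.30 (-13.60 to -5.82) and -8.04 (-11.09 to -6.19). Avil also had 1 and 2 UMIs, Col27a1 had 0 and 1, and Trat1, which stabilises the T cell receptor complex, had 0 and 5 against 1184 and 1111 CPM. Of 20 tested genes of a DETC reference list 16 were lower, of which 5 (Cd3d, Cd3e, Cd3g, Trdc, Trdv4) defined the members or DETCs and 5 had a direction fixed by the minimum. The other 6 were Cd7, Ctsw, Fcer1g, Il2rb, Klrk1 and Nkg7. Only Jaml of that list was higher, at 441 and 377 CPM against 106 and 88.9.

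The list of group 2 ILC genes had 27 members, of which 10 passed the minimum. Csf2, Gata3, Icos, Il18r1, Lmo4 and Rora were higher, Hpgds was lower, and Areg, Bcl11b and Il13 were within 2-fold or differed in 1 library only. Gata3 and Rora chose the members, and the direction of Csf2, Icos, Il18r1, Lmo4 and Hpgds was fixed by the minimum, so that these calls describe the contrast and give no support to a type. In the 181, 6 of 9 tested genes were higher and 0 lower. Icos, a co-stimulatory receptor that sustains type 2 ILCs, stood at 169 and 163 CPM against 12.1 and 7.59 in DETCs. Il18r1, which with Il18rap forms the IL-18 receptor, stood at 311 and 233 CPM against 4.30 and 4.01, a log2 ratio of 6.18 (5.71 to 6.65) and 5.86 (5.45 to 6.29). Lmo4 stood at 260 and 178 CPM against 13.8 and 15.2. Several of the usual defining genes were missing or rare. Il1rl1, the IL-33 receptor, had 0 and 1 UMIs, Klrg1, Il4 and Arg1 had none in either library, and Il17rb, the IL-25 receptor, had 5 and 9 UMIs, where DETCs had 1 and 0.

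Type 2 effector genes were found in a minority of cells. Il5, the eosinophil growth factor, had 8 UMIs in 7 members and 18 in 13, and none in any of the 8489 DETCs, which made it at least 116-fold and 188-fold higher. Il13 was found in 33 of 72 and 53 of 124 members at 163 and 337 CPM, but DETCs had 197 and 203 CPM of it, and the log2 ratio was -0.27 (-0.69 to 0.11) and 0.73 (0.52 to 0.94). Areg, the gene of amphiregulin, stood at 157 and 300 CPM, below the 593 and 557 of DETCs. Both were also plentiful in barcodes with 1 to 100 UMIs, at 125 and 150 CPM for Il13 and 276 and 280 for Areg. Il2ra stood at 44.4 and 63.7 CPM against 4.43 and 2.25. Hpgds, the prostaglandin D2 synthase of type 2 ILCs, had 9 and 14 UMIs over all members but 0 and 1 in the 181.

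The list of group 3 ILC genes had 26 members, of which 10 were tested. Ccr6, Cd81, Kit, Lta, Ltb, Tmem176a, Tmem176b and Tnfrsf25 were higher, Ahr was lower, and Tcf7 was lower past 2-fold in the Skint1 antibody library only. Among the called genes, only Ltb, Tmem176a and Ahr did not have their direction fixed by the minimum. Ltb, lymphotoxin β, was the most abundant, at 1731 and 1255 CPM against 329 and 370, which is 5.26-fold and 3.39-fold higher. Lta stood at 82.8 and 78.8 CPM against 32.9 and 31.7, and Kit, the stem cell factor receptor, at 94.7 and 112 against 15.4 and 8.55. Tmem176a stood at 157 and 106 CPM against 36.2 and 31.3 and its neighbour Tmem176b at 112 and 93.9 against 27.8 and 24.2. The genes that define the type by function were scarce. Il23r, the IL-23 receptor, had 1 and 0 UMIs and Il22 17 and 26 UMIs, or 50.3 and 43.6 CPM against 36.6 and 34.3 in DETCs. Ahr, the xenobiotic sensor that maintains type 3 ILCs, stood at 59.2 and 75.5 CPM against 226 and 222.

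Tested genes of group 1 ILCs and NK cells were lower. All 7 tested of 22 (Gzmb, Il12rb2, Il2rb, Klrd1, Klrk1, Prf1, Xcl1) were lower than in DETCs, but Il2rb and Klrk1 were the only ones whose direction the minimum did not fix. Prf1, the gene of perforin, had 1 and 3 UMIs against 644 and 636 CPM, and Klrd1, the NK receptor chain CD94, 3 and 6 UMIs against 647 and 615 CPM. Klrk1, the activating receptor NKG2D, was retained at 127 and 122 CPM against 448 and 424. Tbx21 and Eomes had no UMI in either library and Ncr1 0 and 1. After thinning, 0 of 70 and 0 of 124 members had a Tbx21 UMI, which by the limit of 3 counts allows up to 4.29% and 2.42% of cells with a UMI at that depth and says nothing of cells that express the gene below it. Of 8 cytotoxic granule genes 6 were lower (5 in the 181), 3 of them fixed by the minimum, and of 7 NK-type receptors and adaptors 6 were lower, 4 of them fixed, among them Fcer1g at 109 and 68.8 CPM, and 12.5 and 53.7 in the 181, against 2372 and 2527.

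Antigen receptor genes formed 2 sets. Of 10 tested T cell receptor and CD3 genes 8 were lower, 5 of them genes of the rules and 2 (Cd247, Tcrg-C1) with a direction fixed by the minimum, which left Tcrg-C4. Trdc, which did not enter the members' rule but defined DETCs, stood at 38.5 and 28.5 CPM against 4673 and 3846, with no UMI in 62 and 110 members. Tcrg-C1 had 0 and 8 UMIs and Cd247, the CD3 ζ chain, 1 and 5 UMIs against 794 and 685 CPM. By contrast the T cell receptor β constant genes were near DETC level. Trbc1 stood at 1097 and 1038 CPM against 1491 and 1250, a log2 ratio of -0.44 (-0.59 to -0.29) and -0.27 (-0.39 to -0.15), and Trbc2 at 698 and 663 against 1097 and 979. Of the 181 members, 68 of 69 and 110 of 112 had a UMI of either. These near-identical paralogs may share reads, so that their split is uncertain, and the 3′ counts of constant genes do not show whether a receptor was rearranged.

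Of 17 tested proximal T cell receptor signalling genes 9 were lower (8 in the 181) and 1, Rasgrp1, was higher, of which Fyb, Grap2, Lat and Lck did not owe their direction to the minimum. Lat, the adaptor that relays the receptor signal, stood at 151 and 143 CPM against 398 and 385, and Lck, the kinase that starts it, at 166 and 127 against 335 and 333. Themis, a T cell signalling adaptor, had 0 and 1 UMIs against 166 and 175 CPM. Rasgrp1, the Ras activator of lymphocytes, stood at 160 and 141 CPM against 22.4 and 19.7.

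Of 19 tested genes of shared ILC development, 8 were higher (Gata3, Hlf, Il18r1, Il7r, Kit, Lmo4, Maf, Rora), 4 lower (Cd7, Nfil3, Runx3, Thy1) and 7 within the fold, with 9 higher in the 181. Gata3, Il7r and Rora were rule genes and the direction of the other 5 higher genes, and of Nfil3, was fixed by the minimum, while 10 genes were free of both. Maf stood at 352 and 275 CPM against 31.0 and 30.5. Id2, the repressor required by all ILCs, stood at 639 and 550 CPM against 304 and 315, past 2-fold in the isotype library only. Thy1 and Cd7, both T cell and ILC surface markers, stood at 216 and 148 CPM against 766 and 756, and at 53.2 and 60.4 against 2692 and 3106. Nfil3, required early in ILC development, had 26.6 and 25.2 CPM against 135 and 127.

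Receptors of several families were higher and others lower than in DETCs. Of 9 tested receptors of the common γ chain and alarmin group, 4 were higher (Il7r, Il18r1, Il18rap and Tgfbr1) and Il2rb was lower, of which only Tgfbr1 and Il2rb were neither rule genes nor fixed by the minimum. Il18rap stood at 136 and 90.6 CPM against 2.05 and 2.30. Of 8 TNF family genes, Cd70, Tnfrsf25, Cd27 and Tnfrsf4 were higher and Tnfrsf9 (4-1BB) lower, all 5 with a direction fixed by the minimum. Tnfrsf4 (OX40) stood at 145 and 107 CPM against 1.16 and 1.71 and Cd27, the receptor of the Cd70 product, at 124 and 122, a log2 ratio of 3.54 (3.01 to 4.04) and 3.24 (2.84 to 3.62). Ligand and receptor of that pair were thus both above DETCs in these cells. Of 12 tested chemokine receptor and residency genes, Ccr6, Cd44 and Cxcr4 were higher (2 of 12 in the 181) and Ccr2, Itgb7, Rgs1 and Rgs2 lower, and Ccr6, Cxcr4 and Ccr2 had a direction fixed by the minimum. Itgae, the αE integrin chain that holds lymphocytes to epithelial E-cadherin, was not separable from DETCs, at 524 and 527 CPM against 572 and 579.

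Among secreted factors and mediators, 5 of 9 tested cytokine genes were higher (Csf2, Furin, Lta, Ltb, Tgfb1) and none lower, with Csf2 and Lta fixed by the minimum. Tgfb1 stood at 364 and 401 CPM against 126 and 118. Ramp1, the co-receptor that turns the calcitonin-like receptor into the receptor for the sensory neuropeptide CGRP, stood at 808 and 661 CPM against 24.2 and 14.1. That was 33.3-fold and 47.0-fold higher, in a direction fixed by the minimum. Ramp1 was found in 67.1% and 48.4% of thinned members and in 2.20% and 1.69% of DETCs, although αβ T cells had 452 and 386 CPM. Nr3c1, the glucocorticoid receptor, stood at 269 and 196 CPM against 78.7 and 77.7. Anxa1, a glucocorticoid-induced annexin, stood at 355 and 349 CPM against 5.18 and 6.31, a log2 ratio of 6.10 (5.67 to 6.53) and 5.79 (5.46 to 6.13), and S100a10 was the other of 11 tested S100, galectin and annexin genes past 2-fold, while the minimum had fixed the direction of Anxa1. Of 5 tested circadian and PAR bZIP genes, Hlf and Bhlhe40 were higher and Nfil3, Per1 and Per3 lower, and only Bhlhe40 did not have its direction fixed by the minimum.

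Part of the immediate early and heat shock genes were lower in the members. Of 19 tested immediate early genes 8 were lower, 10 were within the fold and Dusp2 was higher, with median log2 ratios of -1.59 and -0.99, and 13 were lower in the 181. The direction of Dusp2 and of Nr4a2, 1 of the 8, was fixed by the minimum, as was that of Hsph1 among the heat shock genes. Fos stood at 636 and 1139 CPM against 3766 and 3699. Egr1 had 3 and 100 UMIs, of which 2 and 11 were in the 181. Of 12 heat shock genes 7 were lower, and 5 of 11 in the 181, with Hspa1a at 343 and 562 CPM against 1715 and 1157. The part of the enzymatic digestion in these levels was not tested.

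Against the closest cells of the same sort, few genes separated the members. Of 2527 genes, 5 (0.198%) were at least 2-fold higher and 5 (0.198%) at least 2-fold lower in both libraries in the 181 members than in CD3-intermediate cells. The higher genes were Eif3b, Bcl2a1a, Mark3, Basp1 and Krt83, and the lower ones Cd3g and Cd3d, which the limit itself set, with Atf3, Slfn2 and Ifi27l2a. The minimum fixed the direction of Basp1, Atf3 and Ifi27l2a. No other gene tested was past 2-fold in both libraries between the members and the cells just above the CD3 limit. Against αβ T cells, 41 of 2567 genes (1.6%) were higher and 95 (3.7%) lower. Il7r among the higher, and Trac, Cd3d, Cd3e and Cd3g among the lower, were rule genes. Among the higher, chosen for naming after their values were seen, were Lmo4 at 275 and 193 CPM against 40.3 and 62.5, and Cd27 at 131 and 143 against 35.8 and 62.5. Among the lower were the co-receptor gene Cd4, at 6.25 and 1.99 CPM against 128 and 122, and the co-stimulatory receptor Cd28, at 21.9 and 7.95 against 179 and 212. Cd4 and Cd28 passed the minimum only by being high in αβ T cells, which fixed their direction.

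Between the 2 libraries, the members differed mainly in the cells with other markers. Of 1219 genes with a mean of at least 100 CPM, 29 (2.38%) were at least 2-fold higher and 7 (0.574%) at least 2-fold lower in the Skint1 antibody library. The 8 genes with the largest ratio (Mt4, Krtdap, Calm4, Krt10, Fam25c, Dmkn, Sfn, Perp) were keratinocyte genes. Mt4 had 0 and 236 UMIs in all members and 0 and 1 in the 181, and Krt10 514 UMIs in the Skint1 antibody library against 6 in the 181. On the low side, all 75 Rsad2 UMIs came from 1 of the 3 cells with other markers in the isotype library, and Ifitm3 and Il1b had no UMI in the 181. Ctss and Ctsb, lysosomal proteases, Ash1l, Grk2 and Atp11b made up the rest of the 8 smallest ratios. In the isotype library Ctss had 86 UMIs in all members and 37 in the remaining ones, and Ctsb had 60 and 23. DETCs, tested by the same rule on 1435 genes, had 0 genes higher and 1, the chemokine gene Xcl1, lower. Their sums held 14659876 and 18706191 UMIs, against 338046 and 596161 in the members. Counting error was thus far larger in the members, and these counts of genes do not compare the 2 groups.

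In the 181 members 5 of 1227 genes (0.407%) were at least 2-fold higher in the Skint1 antibody library and 1 (0.0815%) lower. The higher genes were Csf2, Cd83, Il13, Areg and Glipr2, of which Csf2, Il13 and Areg encode secreted factors of type 2 ILCs. The lower one was Atp11b, which passed the minimum of 100 CPM only by being high in the isotype library, so that its direction was fixed. Of the 5 higher genes, Csf2 and Il13 were also past 2-fold over all 196 members, where Cd83 (0.94), Areg (0.94) and Glipr2 (0.80 on the log2 scale) were not. Csf2, the gene of GM-CSF, had 23 UMIs in 7 of 69 cells and 174 UMIs in 24 of 112, or 71.9 and 346 CPM, a log2 ratio of 2.27 (1.63 to 2.96). A single cell held 89 of the 174 UMIs and the top 5 cells held 136. Without the top cell of each library the ratio was 2.16 (1.28 to 3.16). Il13 had 55 UMIs in 33 cells and 201 in 53, or 172 and 400 CPM, a log2 ratio of 1.22 (0.78 to 1.67). The share of cells with Il13 was close in both libraries (47.8% and 47.3%), while cells with 5 or more UMIs numbered 0 and 11. Areg stood at 166 and 354 CPM, a log2 ratio of 1.09 (0.64 to 1.57), with UMIs in 20 and 40 cells. Cd83, an activation marker of lymphocytes, stood at 96.9 and 268 CPM, a log2 ratio of 1.47 (0.90 to 2.08), with UMIs in 14 and 41 cells. At least 3 of these 4 genes were found together in 7 of 69 (10.1%, 4.18 to 19.8) and 27 of 112 cells (24.1%, 16.5 to 33.1), which is a description, since the genes were chosen for their higher level in the second of these libraries.

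**Figure D5:**
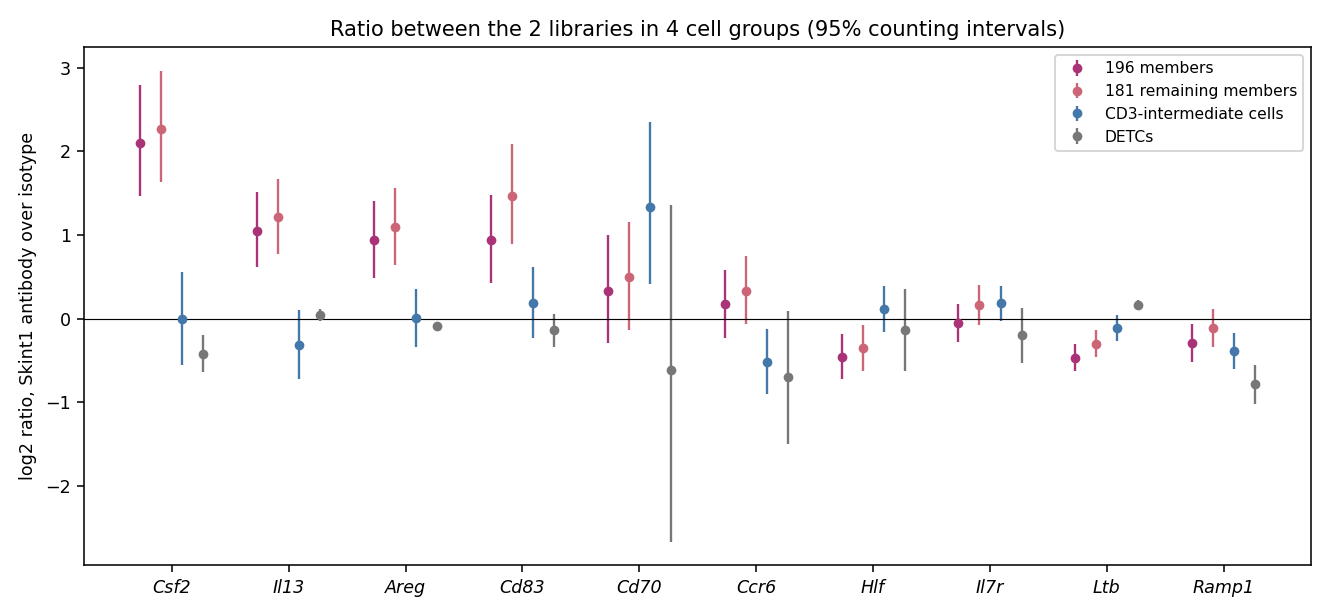
Log2 ratio between the libraries, Skint1 antibody over isotype (y axis), for 10 genes in the 196 members, the 181 remaining members, CD3-intermediate cells and DETCs, with 95% counting intervals, which do not cover the spread between cells or mice. Csf2, Il13, Areg and Cd83 lie above 0 in both sets of members, by 1.09 to 2.27 in the 181, and between -0.31 and 0.19 in CD3-intermediate cells, and Hlf and Ltb lie below 0 in both sets of members.

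The same genes did not differ in this way on the other side of the CD3 limit. In CD3-intermediate cells the log2 ratio was -0.00 (-0.55 to 0.55) for Csf2, -0.31 (-0.73 to 0.11) for Il13, 0.01 (-0.33 to 0.35) for Areg and 0.19 (-0.24 to 0.62) for Cd83. At least 3 of the 4 genes were found in 15 of 79 (19.0%) and 13 of 114 (11.4%) of these cells, the opposite order to the members, a difference between the cell groups that was not tested. Among the 181, cells with no CD3 UMI (25 and 44) had log2 ratios of -0.19 (-1.185 to 0.84) for Csf2, 0.30 (-0.39 to 1.01) for Il13 and 0.60 (0.01 to 1.21) for Areg. Cells with 1 or 2 (44 and 68) had 3.78 (2.71 to 5.12), 1.79 (1.19 to 2.44) and 1.74 (1.01 to 2.56). The Csf2 value of 3.78 rested on 7 and 152 UMIs, and 2 cells, each with 2 CD3 UMIs, held 89 and 25 of the 152. Cd83 had the opposite order, with 2.55 (1.33 to 4.05) in cells with no CD3 UMI and 1.02 (0.36 to 1.73) in cells with 1 or 2. With 1 library per treatment and these counts of cells, whether the libraries differ in these genes beyond the spread between mice was not tested. Among the marker genes, Ccr6 differed between the libraries by 0.34 (-0.07 to 0.75) and Hlf by -0.35 (-0.62 to -0.08) in the 181 members, both within 2-fold.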

How the data were processed

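Single-cell RNA-seq (10x 3′) was made from 2 sorted cell suspensions. The deposited matrices hold raw UMI counts per gene and barcode, made by the authors with CellRanger 3.0.2 against GRCm38 (mm10), with no filter on barcodes. Library totals were 27272211 (isotype) and 32450957 UMIs (Skint1 antibody), and the precision of each value is given by its interval. Barcodes were filtered as stated, without correction for free RNA. Doublets were scored by simulation (scikit-learn 1.9.0) and kept. UMIs were summed over cells with Python 3.11.15, numpy 2.4.6, pandas 2.3.3 and scipy 1.17.1. Intervals were exact Poisson for levels, exact conditional for ratios, Clopper-Pearson for shares and Newcombe for the difference of shares. Genes with a mean of at least 50 CPM (members over DETCs) or 100 CPM (between libraries) were tested for a 2-fold ratio, with no p-value since each treatment had 1 library. The calculation was tested on simulated data. Gene positions are from GENCODE vM21, matched by identifier.

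The members, their markers and the 36 gene lists were chosen with earlier results of these data known, and the rules of the αβ T, dermal γδ T and CD3-intermediate cells and the marker limits for other cells after the data were seen. Named were the rule and marker genes, the 15 highest and 10 lowest ratios over DETCs, up to 6 genes per list past 2-fold in both libraries, the defining ILC genes, and the 8 largest and 8 smallest ratios between libraries. The 15 and 10 were ranked among tested genes that neither the members' rule nor the DETC rule used. Other genes named from the lists (among them Id2, Thy1, Cd7, Cd247, Trbc1, Trbc2, Themis, Itgae and Ccr2) and from the comparisons with other T cells were chosen after their values were seen. Alternatives changed each filter, the member and DETC rules, the weighting of cells, the scaling, the minimum level and the thinning.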

Additional observations from a re-analysis of the deposited data

Results flagged for a closer look

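Opposite signs in the 2 libraries, with no test of the difference, were seen for 2 genes among those with the smallest ratio between libraries. Ash1l, a histone methyltransferase gene, had a log2 ratio of members over DETCs of 0.59 for isotype and -0.51 for Skint1 antibody. Grk2, a kinase that desensitises G-protein-coupled receptors, had 0.47 and -0.52. With 1 library per treatment these differences were not tested.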

How the results depend on the processing

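No paired analysis was possible because each treatment had 1 library, which also left no replicate to leave out. Of 165 counts and shares recomputed under the alternatives, 115 stayed close to the reported value, and of 3228 values of single genes 2621 did and 30 changed sign. In each case below the cause was not tested, unless the smaller or larger set of cells or genes is itself the change.

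With no upper limit on genes, the shares of members became 2.63% and 3.19%, the genes higher and lower than DETCs 251 and 573 (46 and 266 of them among the reported 157 and 331), the genes higher in the Skint1 antibody library 4 (0 among the reported 29), and the thinned shares 18.0% and 19.0% for Ccr6, 42.6% for Hlf (isotype) and 6.34% for Cd70 (Skint1 antibody). Members over DETCs then turned to log2 ratios of -0.055 for Csf2 and -0.0047 for Cd83 (isotype), -0.27 for Ltb, -0.39 for Tgfbr1 and -0.035 for Jaml (Skint1 antibody), -0.41 and -0.64 for Lta, -0.22 and -0.20 for Tgfb1, -0.78 and -0.51 for Furin, -0.36 and -0.35 for Cd44 and 0.67 and 0.38 for Egr1, and ratios between libraries to -0.054 for Fxyd3 and -0.23 for Krt15. At most 5% mitochondrial UMIs left 15 and 17 members, with shares of 0.991% and 0.953%, 120 genes higher and 192 lower between libraries, and thinned shares of 21.4% and 29.4% for Ccr6, 0% and 5.88% for Il9r and 71.4% and 29.4% for Hlf. Hpgds turned to 0.77 and 0.71, Lta to -0.54 (isotype), Egr1 to 0.93 and Hspa1a to 0.21 (Skint1 antibody). With no CD3 UMI allowed the shares were 0.636% and 0.889%, 49 genes were higher and 25 lower between libraries, and the ratio between libraries turned to 1.29 for Ifitm3, -0.54 for Csf2 and -0.051 for Il13. With up to 10 CD3 UMIs, an alternative chosen after seeing the data, the shares were 3.58% and 3.99%, 17 genes were higher and 0 lower between libraries, and Tnfrsf9 turned to 0.057 over DETCs (Skint1 antibody). With a sum of at least 5 for Il7r, Rora and Gata3 the shares were 1.16% and 1.61%. Leaving out the 15 cells with other markers, also chosen after seeing the data, gave 5 genes higher, 2 of them among the reported 29, and 1 lower between libraries, and turned Krt15 to -0.56 and Fam25c to -0.28 over DETCs (Skint1 antibody) and Krt10 to -0.39 and Fam25c to -1.65 between libraries.

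A minimum of 50% of the main level gave 285 genes higher and 543 lower than DETCs and 57 and 52 between libraries, and 200% of it gave 76, 176, 16 and 0. Thinning to 1000 UMIs gave 23.4% for Ccr6 (Skint1 antibody), and thinning to 2500 gave 48.5% for Ccr6 (isotype) and 65.0% for Hlf (Skint1 antibody). Without thinning, the isotype and Skint1 antibody shares were 63.9% and 57.3% for Ccr6, 23.6% and 26.6% for Il9r, 19.4% and 21.0% for Cd70 and 81.9% and 78.2% for Hlf. Leaving out the highest doublet scores, limiting Trdc, requiring Trdv4 in DETCs, weighting cells equally and centring the ratios kept each count of genes recomputed under them close to the reported value, as did the first pair of these for the shares. Shares of cells with a UMI also moved with depth, as the thinning shows.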

Other observations

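Members with a UMI of Il13 were compared with those without after the 181 cells were thinned to 1500 UMIs, a comparison chosen after the data were seen and given as a description. In the Skint1 antibody library, the 28 cells with Il13 had 690 CPM of Areg against 175 in the 84 cells without it, a log2 ratio of 1.98 (1.13 to 2.85). Their level was also above that of the other cells for Csf2, at 452 against 206 CPM, for Cd83, at 524 against 214, and for Cd70, at 214 against 55.6. The Csf2 levels rested on 19 and 26 UMIs, and 1 cell held 89 of the library's 174 Csf2 UMIs before thinning. No value without that cell is given. The isotype library had 44.4 against 38.5 CPM of Csf2 (log2 ratio 0.21, interval -5.51 to 3.85), 88.9 against 38.5 of Cd83 (1.21, -2.37 to 4.33) and 88.9 against 64.1 of Cd70 (0.47, -2.92 to 3.08), from 1 to 5 UMIs each. Nfkbia, the gene of the NF-κB inhibitor IκBα, stood at 1286 against 611 CPM in that library, but at 400.0 against 705 in the isotype library (log2 ratio -0.82), and DETCs with Il13 also had more of it, at 1854 against 1068 and 1862 against 1056 CPM. In the isotype library 15 cells with Il13 and 52 without had 222 and 103 CPM of Areg, from 5 and 8 UMIs, which is too few to separate them (log2 ratio 1.12, interval -0.84 to 2.91). DETCs with and without Il13 had 885 and 523 CPM of Areg in the isotype library and 888 and 447 in the Skint1 antibody library.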
